A study of Mus musculus with 30 samples.

Results

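The 8 genes described here encode 4 Src family kinases (Src, Yes1, Fyn and Lyn), the related kinase Frk, the kinase Csk that restrains this family, the focal adhesion kinase Ptk2 and the ubiquitin ligase Cbl. They were taken from the count table by mouse symbol, with no threshold on a measured value, and make up 8 of its 54232 genes. They were chosen with earlier results of these data known, so shares of members called do not test them against other genes. All 8 passed the filter of more than 14 counts summed over the 30 libraries and were tested with 20139 genes in all, although Lyn passed with only 109 counts.

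The RNA came from 3T3-L1 cells, a clonal mouse fibroblast line that turns into adipocytes in adipogenic medium, and every group was kept in that medium for 5 days. There were 6 groups of 5 libraries. Control cells received the medium alone, and the others received pNaKtide (0.7 µM), indoxyl sulfate (IS, 100 µM), IS + pNaKtide, oxidized low density lipoprotein (oxLDL, 50 µg/mL) or oxLDL + pNaKtide at the same doses. IS is a putative uremic toxin, used in the study to mimic uremia, and oxLDL is an oxidized lipoprotein, used to bring about oxidant stress. The study reads the response to both as one to oxidant stress. pNaKtide is a cell-permeant peptide made from a stretch of the Na,K-ATPase that binds the Src kinase domain, so the series asks how the oxidant stresses change adipocyte expression and whether blocking Na,K-ATPase/Src signaling turns that back. The labels speak of 5 days of treatment, while the study's methods describe a shorter exposure. They name 3T3 cells as the source but adipose tissue in the extraction text, and the samples were taken as cells of 1 cultured line. Nothing states that the 5 libraries of a group came from separate cultures, so p-values measure the spread between libraries, which may be technical.

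Src family kinases sit at the inner face of the plasma membrane and pass signals from integrins, growth factor receptors and the Na,K-ATPase. Their activity is set mainly on the protein: Csk phosphorylates a tyrosine near their C-terminal end, which closes the kinase, and tyrosine phosphatases remove that phosphate. Active Src phosphorylates Ptk2 and many adaptors, and Cbl marks active kinases and receptors for degradation. Transcript levels, which are all that was measured here, do not report kinase activity.

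The cells carried the RNA of adipocytes. All 8 adipocyte markers examined, among them Adipoq, were measured, and their summed level was 11850 to 16799 CPM (counts scaled to a common library size) over the 30 libraries. The 8 preadipocyte or fibroblast markers summed to 3055 to 5523 CPM. Of 8 leukocyte markers 3 were tested (Cd68, Lyz2 and Csf1r), and Ptprc, Cd3e and Itgam had no count in any library. Cd68 was the highest, at a mean of 4.55 CPM, and the 8 summed to 4.51 to 8.11 CPM. The 4 endothelial markers summed to 0 to 0.63 CPM. The 4 epithelial markers summed to 0.29 to 8.01 CPM, the highest in a pNaKtide library. Libraries held 6945498 to 15159877 counts. Of the variance in log2 CPM over 12573 genes, the members left out, 64.4% lay on 1 principal component. On it Control replicate 1 (-25.8) stood apart from the other controls (6.47 to 29.8) and within the range of oxLDL (-41.9 to -14.7), and IS replicate 4 (28.2) stood apart from the other IS libraries (-36.7 to -23.1). The library of oxLDL + pNaKtide replicate 4, the shallowest of all, was at 67.4 and the others of its group at 14.5 to 33.2. Libraries also differed in how their counts depended on the GC content of transcripts. This slope, in log2 units per 10 points of GC, was -0.37 to -0.12 with oxLDL and 0.06 to 0.58 with oxLDL + pNaKtide, where replicate 4 had the 0.58 and the others at most 0.34, and its median in control was 0.24. Because Yes1 and Frk have transcripts poor in GC (41.1% and 40.6%) and Src and Csk have transcripts rich in it (59.3% and 60.1%), the main results are also given with the trend of every library over GC content and gene length taken out.

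Per transcript length the members covered a wide range. The mean FPKM over the 30 libraries, in the authors' length-scaled unit, was 15.7 for Csk, 8.92 for Ptk2, 5.63 for Src, 5.55 for Cbl, 2.39 for Fyn, 1.96 for Yes1, 1.495 for Frk and 0.075 for Lyn. Csk was the most abundant member in all 6 groups, and Src was the most abundant of the 5 Src family and related kinases. Src made up 52.9% ± 6.18 (SD, n = 5) of their summed FPKM in control and 46.5% ± 3.51 with oxLDL. Yes1 made up 13.0% ± 4.67 in control, 22.01% ± 3.18 with oxLDL and 10.7% ± 2.53 with oxLDL + pNaKtide. The summed FPKM itself was 11.1 ± 0.711 in control, 13.7 ± 1.55 with oxLDL and 9.80 ± 0.713 with oxLDL + pNaKtide. Lyn, a kinase best known from blood cells, gave only 11 to 31 counts per group of 5 libraries.

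**Figure D1:**
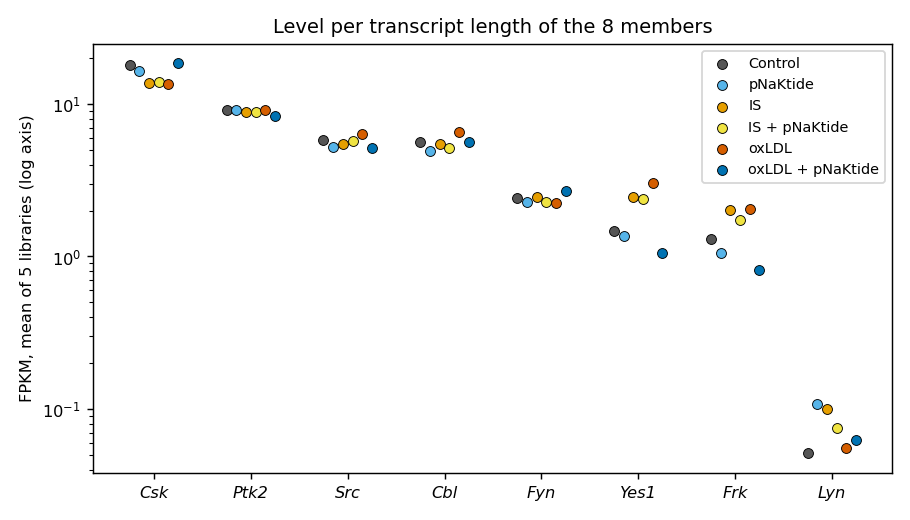
Mean FPKM of 5 libraries for each member (log axis, members ordered by their mean over all libraries), with 1 point per group. Csk lies highest in every group and Lyn, at 0.05 to 0.11 FPKM, far below the rest, while the points of Yes1 and Frk spread most between groups among the other members.

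Yes1, Frk and Csk carry most of what follows, so the 250 bases before the first transcribed base of each are shown, 5′ to 3′ on the gene's strand, from RefSeq on GRCm38.p6. Promoters of 6 members were matched in that table. Capitals mark the GC box GGGCGG on either strand.
Yes1, chr5:32610921-32611170, plus strand: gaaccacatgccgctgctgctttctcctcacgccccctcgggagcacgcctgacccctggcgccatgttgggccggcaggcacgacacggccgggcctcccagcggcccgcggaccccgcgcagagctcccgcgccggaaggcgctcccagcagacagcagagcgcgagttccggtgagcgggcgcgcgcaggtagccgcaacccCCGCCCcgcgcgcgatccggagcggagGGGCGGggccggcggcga
Frk, chr10:34483150-34483399, plus strand: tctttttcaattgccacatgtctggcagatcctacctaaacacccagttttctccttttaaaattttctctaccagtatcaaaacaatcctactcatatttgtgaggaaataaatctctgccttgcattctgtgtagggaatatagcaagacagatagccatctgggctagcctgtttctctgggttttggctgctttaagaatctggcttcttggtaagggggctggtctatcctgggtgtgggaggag
Csk, chr9:57653632-57653881, minus strand: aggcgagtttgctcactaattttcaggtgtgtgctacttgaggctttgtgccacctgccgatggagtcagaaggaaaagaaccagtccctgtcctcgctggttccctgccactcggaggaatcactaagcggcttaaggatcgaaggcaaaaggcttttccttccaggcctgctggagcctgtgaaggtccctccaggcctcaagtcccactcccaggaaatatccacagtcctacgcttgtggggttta
The Yes1 window was 77.2% G or C and held 2 GC boxes, and the Frk window was 43.2% G or C and held none. The Csk window was 54.0% G or C and held none, and the same was true of a second Csk start with 64.0% G or C. The median over 32851 promoters of that length was 52.4% G or C, and 32.7% of them held a GC box. None of these windows had CCAAT (33.8% of all promoters), TATAAA (12.4%), TGACGTCA (1.55%), TGACTCA (4.46%) or CACGTG (6.02%), on both strands. Yes1 and Frk thus had nearly the same GC content in their transcripts and very different GC content in their promoters.

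Yes1, a widely expressed Src family kinase (ENSMUSG00000014932, GRCm38 chr5:32611171-32687057, plus strand), changed most with oxLDL. Its level was 19.4, 8.54, 11.5, 7.91 and 8.51 CPM in control replicates 1 to 5. With oxLDL it was 23.0, 28.7, 18.0, 18.4 and 27.6 CPM. The 4 controls other than replicate 1 lay below all oxLDL libraries, and replicate 1 lay among them. Yes1 rose with oxLDL by 1.05 on the log2 scale (SE 0.23, edgeR adjusted p = 0.00783), a fold of 2.07. With the trend taken out the rise was 0.58 (edgeR adjusted p = 0.0090), and without Control replicate 1 and IS replicate 4 it was 1.35. With oxLDL + pNaKtide the level was 7.99, 10.8, 9.59, 5.13 and 6.14 CPM, and all 5 libraries lay below every oxLDL library. Yes1 fell by 1.53 on the log2 scale against oxLDL (SE 0.25, edgeR adjusted p = 3.43e-05), that is by 65.4%, and by 0.86 with the trend taken out. An exon of a gene of unknown coding status on the other strand, Gm10461, overlaps Yes1 and cannot be told apart from it where strand was not used in counting, but it had 74 counts over all libraries against 5594 for Yes1.

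Frk (ENSMUSG00000019779, GRCm38 chr10:34483399-34611278, plus strand), a nuclear and cytoplasmic relative of Src best known from epithelia, followed the same pattern at a lower level. Control libraries 1 to 5 had 10.1, 5.37, 6.59, 5.70 and 6.71 CPM. The oxLDL libraries had 12.3, 12.9, 8.03, 8.86 and 12.8 CPM. Control replicate 1 again lay within the oxLDL range and the other controls below it. Frk rose by 0.68 (SE 0.19, edgeR adjusted p = 0.0117), but with the trend taken out the value was 0.19 (edgeR adjusted p = 0.311), which ended the call. With oxLDL + pNaKtide it was 5.10, 5.17, 5.51, 2.48 and 3.22 CPM, below all oxLDL libraries. It fell by 1.33 against oxLDL (SE 0.20, edgeR adjusted p = 1.7e-05) and by 0.70 (edgeR adjusted p = 0.000157) with the trend taken out.

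Csk (ENSMUSG00000032312, GRCm38 chr9:57626646-57653631, minus strand), the kinase that closes Src family kinases, moved the other way. It had 52.1, 72.6, 63.9, 77.7 and 73.4 CPM in control replicates 1 to 5 and 52.5, 52.0, 49.0, 54.8 and 47.5 CPM with oxLDL. The oxLDL libraries lay close together and below the controls, apart from Control replicate 1. Csk fell by 0.41 on the log2 scale (SE 0.11, edgeR adjusted p = 0.0127), or by 24.6%. With oxLDL + pNaKtide it was 62.5, 61.1, 66.1, 82.4 and 70.1 CPM, above every oxLDL library. It rose by 0.42 against oxLDL (SE 0.12, edgeR adjusted p = 0.00391). Both calls for Csk were lost with the trend taken out (-0.13, edgeR adjusted p = 0.165, and 0.07, edgeR adjusted p = 0.453), and the second also with scaling by library size alone (0.19).

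Src itself (ENSMUSG00000027646, GRCm38 chr2:157418444-157471862, plus strand), the kinase that pNaKtide is made to bind, did not pass the test with oxLDL and fell when pNaKtide was added to it. Its level was 23.5, 25.7, 24.9, 25.9 and 29.2 CPM in control replicates 1 to 5 and 30.9, 28.05, 24.8, 29.2 and 27.8 CPM with oxLDL, and the groups overlapped. The difference was 0.13 (SE 0.08, 95% interval -0.04 to 0.29, edgeR adjusted p = 0.255), but Src passed the threshold with the trend taken out at 0.38 (edgeR adjusted p = 0.00966), with library size alone at 0.26 (edgeR adjusted p = 0.0353) and with the stricter filter at 0.16 (edgeR adjusted p = 0.0817). With oxLDL + pNaKtide the level was 20.7, 22.1, 25.5, 22.3 and 22.1 CPM, where replicate 3 lay above the lowest oxLDL library. Src fell by 0.32 against oxLDL (SE 0.08, edgeR adjusted p = 0.00205), a change of -19.97%, and by 0.62 (edgeR adjusted p = 2.41e-06) with the trend taken out. Src and Csk have transcripts of nearly the same GC content, yet Csk lay near the genes of like GC content in both comparisons and Src did not. In the bin of 57.5% to 60% GC that holds Src, the median change of 808 genes was -0.32 with oxLDL and 0.33 with oxLDL + pNaKtide against oxLDL.

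**Figure D2:**
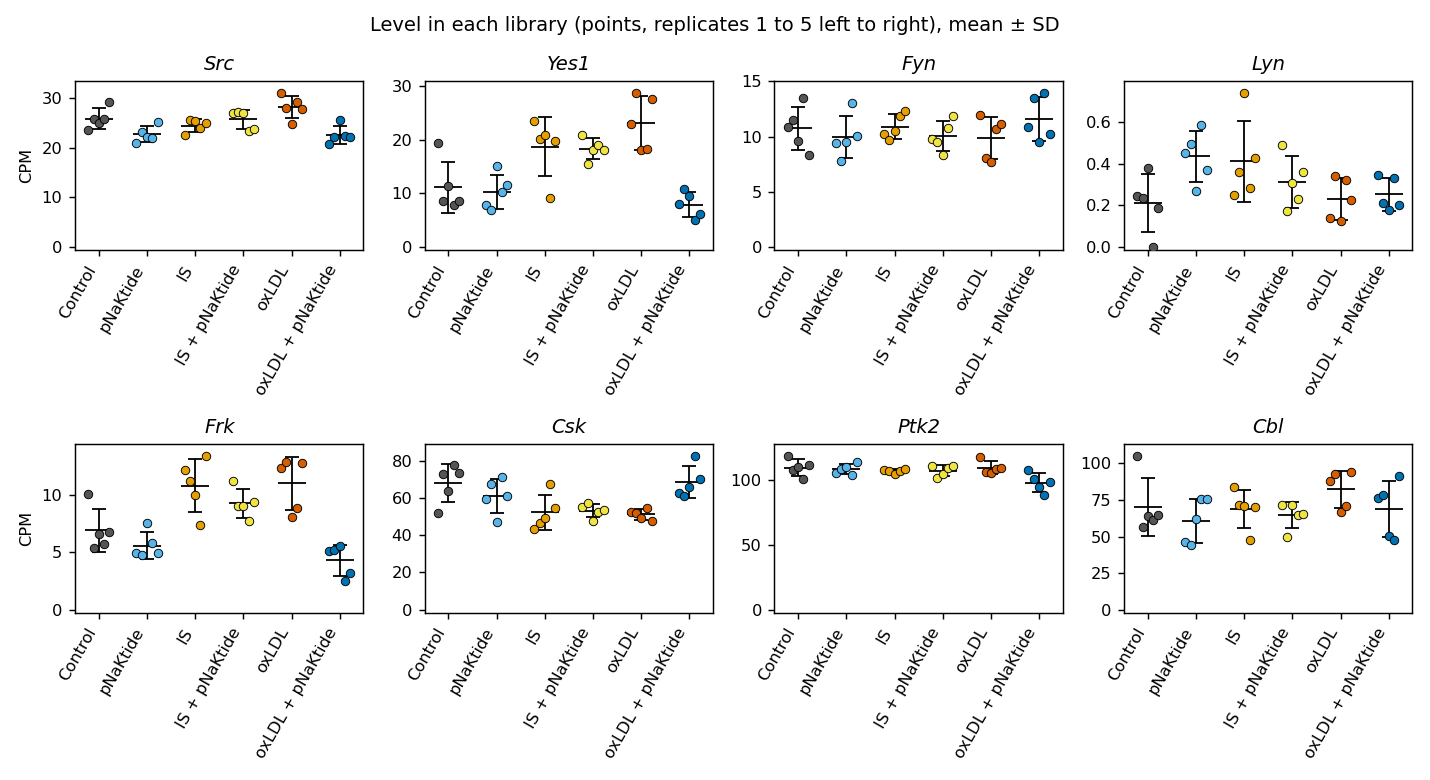
CPM of each member in every library (points, replicates 1 to 5 from left to right) with the mean and SD of each group (bars, n = 5), 1 panel per gene with its own axis from 0. Yes1 and Frk are high with oxLDL and low with oxLDL + pNaKtide, Csk is the reverse, and the single raised control point in Yes1, Frk and Cbl is replicate 1.

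Ptk2, focal adhesion kinase (ENSMUSG00000022607, GRCm38 chr15:73205102-73423280, minus strand), did not pass the test with oxLDL (109 ± 6.47 CPM in control against 109 ± 5.105, n = 5) with a difference of -0.002 (95% interval -0.14 to 0.13), but passed with the trend taken out at -0.22 (edgeR adjusted p = 0.0543). Its oxLDL libraries had 118, 106, 105, 108 and 109 CPM and its oxLDL + pNaKtide libraries 107, 101, 94.3, 87.9 and 98.4 CPM, which overlap. It fell by 0.16 (SE 0.06, edgeR adjusted p = 0.0466), but the direction turned with the trend taken out (0.20, edgeR adjusted p = 0.0490). The call was also lost with DESeq2's size factors, with the looser filter of at least 1 count, with only the 2 groups in the model, and without oxLDL replicate 1 or without oxLDL + pNaKtide replicate 4, where the highest adjusted p was 0.192.

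Fyn, Lyn and Cbl did not pass the test in either comparison. Fyn (ENSMUSG00000019843, GRCm38 chr10:39368855-39565381, plus strand), a kinase of the integrin and T cell receptor pathways, ranged from 7.66 to 13.9 CPM over all libraries, and its difference was -0.11 with oxLDL (95% interval -0.41 to 0.19) and 0.21 with oxLDL + pNaKtide against oxLDL (-0.09 to 0.51). Cbl (ENSMUSG00000034342, GRCm38 chr9:44142976-44234049, minus strand) differed by 0.23 (-0.16 to 0.61) and by -0.25 (-0.64 to 0.13), and the latter passed with library size alone (-0.49, edgeR adjusted p = 0.0595). Cbl was at 105 CPM in Control replicate 1 and at 56.5 to 64.9 CPM in the other controls. Without Control replicate 1 and IS replicate 4 its difference with oxLDL was 0.42 and passed the test (edgeR adjusted p = 0.0491). For Lyn (ENSMUSG00000042228, GRCm38 chr4:3678115-3813122, plus strand) the 95% intervals ran from -0.84 to 1.12 and from -0.996 to 1.05, so both intervals held no change as well as a rise of 2-fold. Gm26857, a noncoding gene on the other strand that overlaps an exon of Lyn, had no count in any library.

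With oxLDL 2 of the 8 members thus rose, where 18.1% of all tested genes did, and 1 fell, where 18% did. None of the 8 had groups that did not overlap, against 8.35% of all genes. With oxLDL + pNaKtide against oxLDL 1 rose (22.1% of all genes) and 4 fell (26.1%), and 3 had groups that did not overlap (28.4%). Without oxLDL + pNaKtide replicate 4, which had the lowest Yes1 and Frk and the highest Csk of its group, the changes against oxLDL were -1.42 for Yes1, -1.21 for Frk, 0.35 for Csk and -0.31 for Src, and these 4 still passed, while Ptk2 did not. Most of these shares of 8 are close to the shares over all genes, so the counts alone set the members apart from no other genes. Among the 12567 tested genes whose log2 CPM averaged 1 or more, those of the bin of 40% to 42.5% GC, which holds Yes1 and Frk, had a median change with oxLDL of 0.48 (quartiles 0.28 to 0.64), and those of 60% to 62.5% GC, which holds Csk, had -0.34 (-0.50 to -0.16). With oxLDL + pNaKtide against oxLDL these medians were -0.65 (-0.89 to -0.35) and 0.43 (0.17 to 0.66). Csk lay within the quartiles with oxLDL, Yes1 lay above the upper quartile, and Frk (0.68) lay above it by less than its SE. Yes1 and Frk lay below the lower quartile with oxLDL + pNaKtide. The part of the GC slope of the libraries in these changes was not tested beyond the fit with the trend taken out. The adipocyte markers moved in the same comparisons. Of the 8, 3 fell with oxLDL (1 with the trend taken out), and 4 rose with oxLDL + pNaKtide against oxLDL (4 with the trend taken out). Of the 8 preadipocyte or fibroblast markers, 2 fell with oxLDL (0 with the trend taken out), and 2 rose and 1 fell with oxLDL + pNaKtide (3 and 2 with the trend taken out). The part of these markers in the members' changes was not tested.

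**Figure D3:**
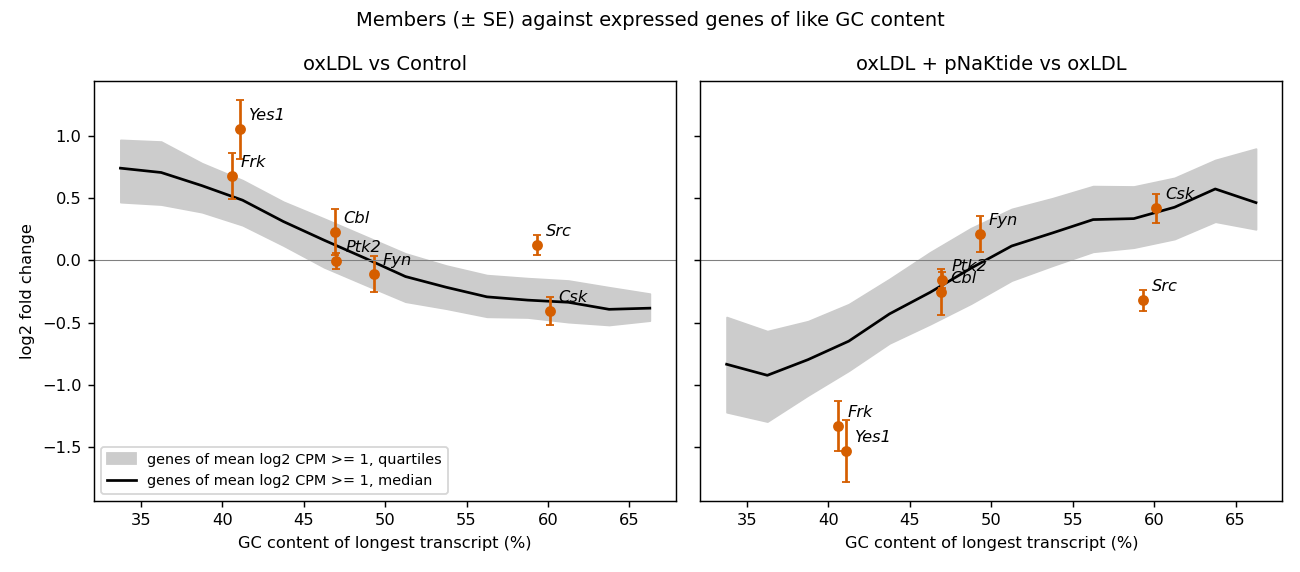
Log2 fold change of each member with more than 109 counts (points, ± SE) against the GC content of its longest transcript, over the median (line) and quartiles (grey) of the 12567 tested genes whose log2 CPM averaged 1 or more, in GC bins of at least 20 genes, for oxLDL vs Control (left) and oxLDL + pNaKtide vs oxLDL (right). Csk, Ptk2, Cbl and Fyn lie on or near the grey band in both panels, Src lies off it in both, and Yes1 and Frk lie below it on the right.

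**Figure D4:**
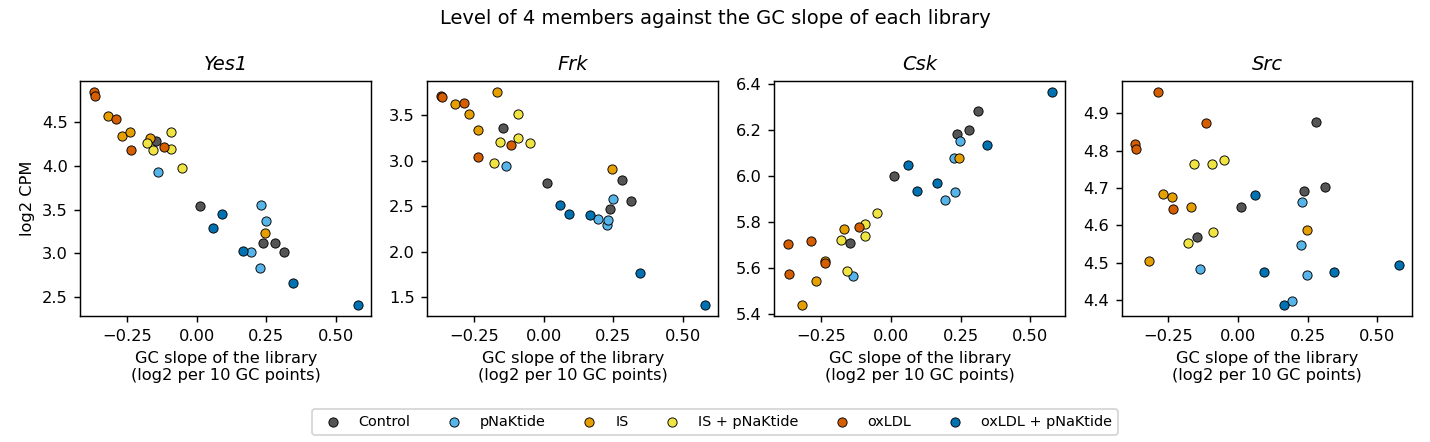
Log2 CPM of Yes1, Frk, Csk and Src in each of 30 libraries (points, coloured by group) against the GC slope of that library, in log2 units per 10 points of GC. Yes1 and Frk fall and Csk rises along the axis, with Control replicate 1 and IS replicate 4 next to other libraries of like slope rather than to their groups, while the points of Src are scattered.

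IS moved the same 3 members less firmly. Yes1 was 23.6, 20.2, 20.8, 9.21 and 19.8 CPM in IS replicates 1 to 5, so that replicate 4 lay within the range of the controls and the rest above every control. Against control Yes1 rose by 0.75 (edgeR adjusted p = 0.0818), Frk rose by 0.65 (edgeR adjusted p = 0.0690) and Csk fell by 0.38 (edgeR adjusted p = 0.0737). That is 2 members up, where 4.45% of all genes were called higher, and 1 down, where 3.49% were called lower. Because the members were chosen with earlier results of these data known, these shares do not set them apart from other genes. Each of the 3 calls was lost in 8 of 10 fits that left out 1 library, and held only without Control replicate 1 or without IS replicate 4. None held when only the 2 groups were in the model, and Yes1 also lost its call with the looser filter of at least 1 count. Without Control replicate 1 and IS replicate 4 the changes were 1.21 for Yes1, 0.94 for Frk and -0.57 for Csk, with adjusted p-values of 3.4e-05, 0.000109 and 8.62e-05 by edgeR. The trend taken out left Yes1 at 0.41 (edgeR adjusted p = 0.0733) and Csk at -0.20 (edgeR adjusted p = 0.0903), and Frk at 0.30 did not pass. In the same comparison 3 of 8 adipocyte markers, 3 of 8 preadipocyte or fibroblast markers and 1 of 3 tested epithelial markers fell. With the trend taken out 3, 2 and 0 fell, and the part of these markers was not tested. Src (-0.08, 95% interval -0.25 to 0.09), Fyn, Ptk2 and Cbl did not pass the test with IS. Lyn differed by 0.91 with an interval of 0.04 to 1.77 (edgeR adjusted p = 0.195). It passed without Control replicate 1 and IS replicate 4 (1.04, edgeR adjusted p = 0.0918) and without IS replicate 4 alone, so that 4 members were called without both libraries.

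pNaKtide by itself moved no member past the threshold of edgeR's test, where 0.00497% of all genes were called; 1 of the 8 had an unadjusted p under 0.05. DESeq2 called 0, but gave 5 of the 8, Src among them, no adjusted p. The member with the low unadjusted p was Src, at 22.7 ± 1.62 CPM with pNaKtide against 25.8 ± 2.095 in control (-0.19, 95% interval -0.36 to -0.02, edgeR adjusted p = 0.752). The interval for Yes1 was -0.62 to 0.40, for Frk -0.71 to 0.12 and for Csk -0.39 to 0.09. Lyn had the largest difference, 0.97 (SE 0.45, edgeR adjusted p = 0.815), on 12 counts in control and 20 with pNaKtide. With pNaKtide added to IS, edgeR called 0 of the 8 members and 0% of all genes, no member had an unadjusted p under 0.05, and DESeq2 called 0, with no adjusted p for Lyn. Yes1 was 20.9, 15.6, 18.0, 19.1 and 18.1 CPM with IS + pNaKtide, within the range of IS alone, and differed from it by -0.04 (95% interval -0.50 to 0.43). Frk differed by -0.23 (-0.60 to 0.13) and Csk by 0.03 (-0.20 to 0.27).

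The change with pNaKtide under oxLDL differed from the change with pNaKtide alone for 3 members. The difference between the 2 changes was -1.42 for Yes1 (SE 0.35, edgeR adjusted p = 0.0225), -1.04 for Frk (SE 0.28, edgeR adjusted p = 0.0263) and 0.57 for Csk (SE 0.16, edgeR adjusted p = 0.0288), where 24.6% of all genes passed. Without oxLDL + pNaKtide replicate 4 these 3 still passed, with adjusted p-values of 0.0554, 0.0630 and 0.0678 by edgeR, while all genes called fell from 4951 to 2525, and without pNaKtide replicate 3 to 2109. With the trend taken out Yes1 kept its call (-0.85, edgeR adjusted p = 0.0126), Frk and Csk did not, and Src passed (-0.47, edgeR adjusted p = 0.0263). In the main fit the difference for Src was -0.13 (SE 0.12, edgeR adjusted p = 0.459) and did not pass. There the fall of Src under oxLDL was thus not told apart from its change with pNaKtide alone. Src also passed with library size alone (-0.32). Against the change with pNaKtide under IS, 4 members passed, where 29.3% of all genes did. These were Yes1 (-1.49), Frk (-1.10), Src (-0.39, edgeR adjusted p = 0.0201) and Csk (0.39, edgeR adjusted p = 0.0850). With the trend taken out the first 3 kept their calls, at -0.90 for Yes1 (edgeR adjusted p = 0.0037), -0.52 for Frk (edgeR adjusted p = 0.0476) and -0.65 for Src (edgeR adjusted p = 0.00229). The difference for Csk was then 0.05 (edgeR adjusted p = 0.760) and did not pass. The call for Csk held in 9 of 20 fits that left out 1 library, and was also lost with library size alone (0.18) and with the looser filter. Against pNaKtide alone, 2 of 8 adipocyte and 2 of 8 preadipocyte or fibroblast markers were called higher (0 and 0 with the trend taken out). Against IS, 1 adipocyte marker was higher, and 2 preadipocyte or fibroblast markers were higher and 1 lower. With the trend taken out these were 2, 1 and 0, and the part of the markers was not tested. The change under IS did not differ from the change with pNaKtide alone for any member by edgeR (0% of all genes), where 2 members had an unadjusted p under 0.05 and DESeq2 called 0.

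Against control, cells given oxLDL + pNaKtide had lower Frk (-0.66, edgeR adjusted p = 0.0793), 1 member where 3.16% of all genes were called lower. This call held in 4 of 10 fits that left out 1 library. It was lost without Control replicate 1 (-0.47, edgeR adjusted p = 0.267), 3 or 5 and without oxLDL + pNaKtide replicate 1, 4 or 5. It was kept with the trend taken out at -0.51 (edgeR adjusted p = 0.0264). Yes1 differed by -0.48 (95% interval -1.01 to 0.05), Csk by 0.01 (-0.23 to 0.25) and Src by -0.20 (-0.37 to -0.02, edgeR adjusted p = 0.206). Src passed with the trend taken out (-0.24, edgeR adjusted p = 0.0954) and with library size alone (-0.29, edgeR adjusted p = 0.0621). Ptk2 differed by -0.16 (edgeR adjusted p = 0.177), and passed with library size alone, with the stricter filter and by DESeq2. Against control, IS + pNaKtide gave no call by edgeR (0.358% of all genes), with 3 members at an unadjusted p under 0.05 and 2 called by DESeq2. Yes1 passed with the trend taken out (0.45, edgeR adjusted p = 0.0704). Without Control replicate 1, where 5378 of the 20139 genes were called against 72 with it, all 3 passed, namely Yes1 (1.01, edgeR adjusted p = 0.00941), Frk (0.60, edgeR adjusted p = 0.0311) and Csk (-0.43, edgeR adjusted p = 0.0152). Of the 8 preadipocyte or fibroblast markers 1 was lower in the main fit and 3 with the trend taken out. Of the 8 adipocyte markers 0 were called in either fit, and the part of the markers was not tested.

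**Figure D5:**
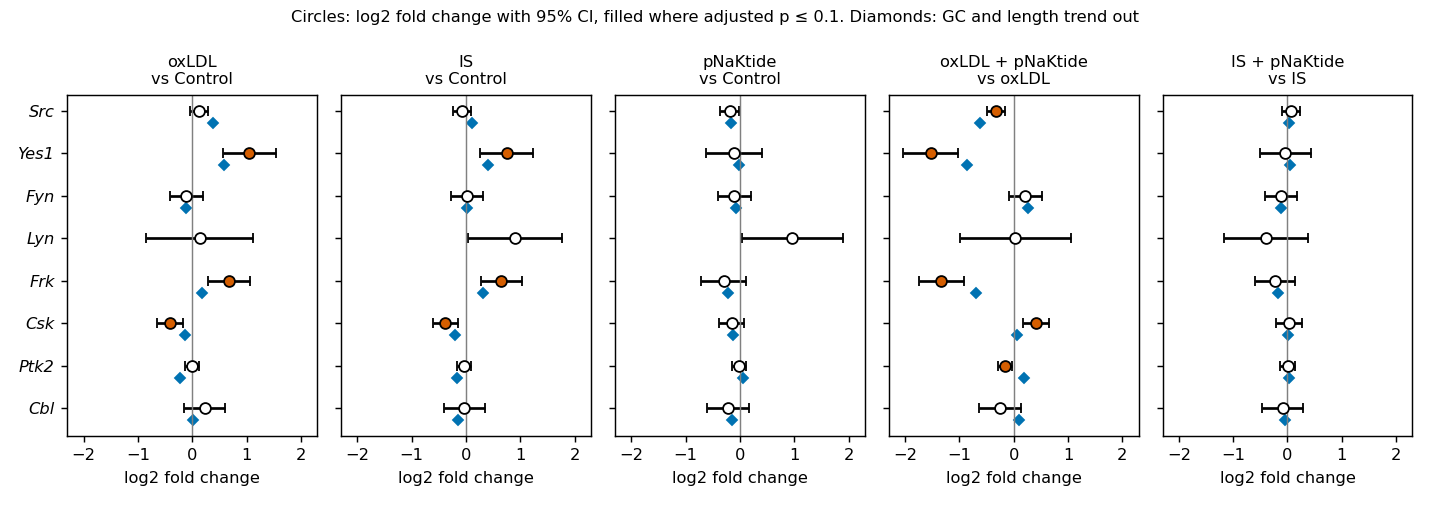
Log2 fold change of the 8 members (circles, 95% intervals, filled where the edgeR adjusted p was at most 0.1) in 5 comparisons, with the value after the GC and length trend was taken out (diamonds, not drawn for Lyn). Yes1, Frk and Csk are filled with oxLDL, IS and oxLDL + pNaKtide vs oxLDL, Src and Ptk2 in the last of these only, and no circle is filled for pNaKtide alone or for IS + pNaKtide vs IS.

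Ordered by mean level over the groups, Yes1 ran from oxLDL (23.1 ± 4.99 CPM) through IS (18.7 ± 5.51), IS + pNaKtide (18.3 ± 1.91), control (11.2 ± 4.79) and pNaKtide (10.3 ± 3.20) to oxLDL + pNaKtide (7.92 ± 2.34). Frk had the same order, from 10.97 ± 2.33 to 4.30 ± 1.35 CPM. In both, neighbours in the order differed by less than the larger of their SDs except at the step from IS + pNaKtide to control. Csk ran from oxLDL + pNaKtide (68.5 ± 8.56) through control (67.9 ± 10.2), pNaKtide (61.2 ± 9.17), IS + pNaKtide (53.2 ± 3.49) and IS (52.2 ± 9.46) to oxLDL (51.2 ± 2.90), and no neighbours differed by more than the larger SD. The order for Src was oxLDL (28.1 ± 2.23), control, IS + pNaKtide, IS, pNaKtide and oxLDL + pNaKtide (22.5 ± 1.77).

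The genes whose log2 CPM was most like each member's over the 30 libraries, among the 12573 genes whose mean log2 CPM reached 1, were named by Pearson's r as a description, since all genes share the libraries and their GC slopes. They were Bclaf1 (0.98) and Twsg1 (0.98) for Yes1, Man1a2 (0.96) and Twsg1 (0.95) for Frk, and Plod3 (0.95) and Fkbp10 (0.95) for Csk. For Src they were Fam43a (0.78) and Plpp3 (0.73), for Ptk2 Rbpj-ps3 (0.82) and Brca1 (0.80), for Cbl Mdn1 (0.94) and Cpd (0.94), and for Fyn Ajuba (0.77) and Iffo1 (0.70). Lyn reached only 0.59 with Gm6749 and 0.56 with Borcs7.

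The partners of the members were taken as 6 lists, of which 62 genes were tested. Their counts stand against 18.1% of all genes higher and 18% lower with oxLDL, and 22.1% higher and 26.1% lower with oxLDL + pNaKtide against oxLDL. In both directions together, the trend taken out left 4031 and 7453 of the 20139 genes called in these comparisons. Of the other Src and Frk family kinases, 2 of 6 were tested (Srms and Lck) and neither passed in these comparisons. With the trend taken out Srms was lower with oxLDL + pNaKtide than with oxLDL (-1.64, edgeR adjusted p = 0.0884), on 44 counts in all. Of 5 relatives and anchors of Csk, none passed with oxLDL, and Ptpn22, a phosphatase that binds Csk, was lower with oxLDL + pNaKtide than with oxLDL (-1.75, edgeR adjusted p = 0.0647) on 64 counts in all, a call that was lost with the trend taken out (edgeR adjusted p = 0.182). Cav1, the caveolar coat protein, named after its values were seen, then passed in both comparisons (-0.35, edgeR adjusted p = 0.0357, and 0.49, edgeR adjusted p = 0.000813), while without that step it stood at 0.01 in both. Of 8 tyrosine phosphatases that act on Src family kinases or their partners, 3 rose and 1 fell with oxLDL. Ptpn12, which acts on the adaptor Bcar1, rose by 0.55 (edgeR adjusted p = 0.0103), and Ptpn1, the phosphatase of the insulin receptor, fell by 0.29 (edgeR adjusted p = 0.0137). With oxLDL + pNaKtide against oxLDL 2 rose and 4 fell, with Ptpn12 at -0.81 (edgeR adjusted p = 8.49e-05) and Ptpn1 at 0.28 (edgeR adjusted p = 0.00755). The median of the list was 0.31 and -0.36 in these comparisons, against 0.04 and -0.09 over all genes. With the trend taken out the counts were 2 up and 0 down with oxLDL, and 0 up and 2 down with oxLDL + pNaKtide. Neither call for Ptpn1 was thus kept.

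Of 17 tested relatives and partners of Ptk2, 4 rose and 7 fell with oxLDL, and 5 rose and 6 fell with oxLDL + pNaKtide against oxLDL. With oxLDL Rb1cc1, an autophagy protein that binds Ptk2, rose by 0.82 (edgeR adjusted p = 0.00836), and Ptk2b, the other kinase of the focal adhesion kinase family, fell by 0.34 (edgeR adjusted p = 0.00824). With oxLDL + pNaKtide Dock1, an exchange factor for Rac, fell by 0.92 (edgeR adjusted p = 3.63e-06), and the paxillin relative Tgfb1i1 rose by 0.79 (edgeR adjusted p = 0.000143). Dock1 and Tgfb1i1 kept their calls with the trend taken out (-0.70 and 0.82). The list medians were -0.10 and 0.16. Taking the trend out left 2 of the 17 higher and 5 lower with oxLDL, and 4 higher and 3 lower with oxLDL + pNaKtide. Of 12 relatives and adaptors of Cbl, 2 rose and 2 fell with oxLDL, where the adaptor Cd2ap rose by 0.84 (edgeR adjusted p = 0.00815) and Sh2b2, an adaptor of insulin signaling, fell by 0.27 (edgeR adjusted p = 0.0396). With oxLDL + pNaKtide 1 rose and 6 fell, with Sh2b2 at 0.66 (edgeR adjusted p = 1.38e-05) and Spry2, an inhibitor of receptor tyrosine kinase signaling, at -0.61 (edgeR adjusted p = 0.000276). The list medians were 0.13 and -0.27. After the trend was taken out 1 of the 12 was higher and 1 lower with oxLDL, and 2 were higher and 2 lower with oxLDL + pNaKtide.

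Of 20 tested substrates and partners of Src, 4 rose and 2 fell with oxLDL, and 1 rose and 11 fell with oxLDL + pNaKtide against oxLDL. With oxLDL Wasl, which starts actin branching, rose by 0.62 (edgeR adjusted p = 0.0113) and the adaptor Shc1 fell by 0.19 (edgeR adjusted p = 0.0335). With oxLDL + pNaKtide Eps8, a regulator of actin, fell by 0.67 (edgeR adjusted p = 2.04e-05) and the phospholipase Plcg1 rose by 0.21 (edgeR adjusted p = 0.0363). The list medians were 0.09 and -0.22. With the trend taken out 6 of the 20 rose and 1 fell with oxLDL, and 4 rose and 12 fell with oxLDL + pNaKtide. Over the 62 genes of all lists, edgeR called 0 with pNaKtide alone, where 3 had an unadjusted p under 0.05 and DESeq2 called 0, with no adjusted p for 22 of them. It called 0 with IS + pNaKtide against IS, where 1 had an unadjusted p under 0.05 and DESeq2 called 0, with no adjusted p for 10. With IS against control 2 rose and 4 fell, where 4.45% of all genes were called higher and 3.49% lower. Of the 62, 33 were called without Control replicate 1 and IS replicate 4, 13 by DESeq2 and 4 with the trend taken out, where 9140, 3160 and 893 of the 20139 genes were called.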

How the data were processed

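The authors trimmed paired-end reads of stranded mRNA libraries (Trimmomatic 0.38), aligned them to GRCm38 (HISAT2 2.1.0) and made the deposited counts per gene with GenomicAlignments, not normalized and not pooled; versions are from the submitters' processing notes. The authors' FPKM values were used for levels per length and 1 alternative. No source used here states the annotation release, the strand setting or the lengths. GENCODE M21 and RefSeq gave symbols (54079 of 54232 IDs), positions, GC content and promoters.

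The 8 members and all lists were chosen with earlier results of these data known. Counts of genes with more than 14 counts over 30 libraries were TMM-scaled, and all 6 groups entered 1 robust quasi-likelihood model (edgeR 4.0.16, R 4.3.3), two-sided, with BH adjustment over 20139 genes at 0.1. Log2 CPM used a prior count of 2. Named list genes have the smallest p in each direction among those past the threshold with oxLDL and with oxLDL + pNaKtide vs oxLDL. Where no result with the trend taken out is given for a named list gene, its call may not hold in that fit. Common biological variation was 14.0%. No libraries of a group were duplicates (lowest chi-square per degree of freedom 1.30 over 60 pairs).

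Alternatives were DESeq2 1.42.0, its size factors in edgeR, no scaling but library size, an adjusted p of 0.05, a stricter filter (every library above 14 counts, 11567 genes) and a looser one (any count, 29409 genes), a replicate block, offsets for the trend over GC content and length (spline with 5 degrees of freedom), limma-trend (limma 3.58.1) on log2(FPKM + 1) at a mean FPKM of at least 0.5 (13639 genes), only the compared groups, and leaving out libraries. The fits across genes were also tested on simulated data, where edgeR missed part of the changed genes. The criterion first set, on the number of changed genes found, was not met. It was replaced by criteria on 2-fold changes, wrong signs and false calls, which were met.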

Additional observations from a re-analysis of the deposited data

Results flagged for a closer look

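In 3 of the 48 groups of 5 libraries, 1 for each member and condition, 1 library stood farther from the rest in log2 CPM than Dixon's 95% limit, which chance gives in about 1 in 20 groups. Yes1 was at 9.21 CPM in IS replicate 4 and at 19.8 to 23.6 CPM in the other IS libraries. Cbl was at 104.9 CPM in Control replicate 1 and at 56.5 to 64.9 CPM in the other controls. Cbl was also at 49.8 CPM in IS + pNaKtide replicate 2 and at 64.5 to 71.6 CPM in the others of that group, just past the limit. On the linear CPM scale, tried after the data were seen, it did not pass the limit (ratio 0.673), and Frk in Control replicate 1 did (0.716).

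The change with pNaKtide differed by condition for several members in edgeR's test of the difference itself. With oxLDL it differed from the change without a stress by -1.42 for Yes1, -1.04 for Frk and 0.57 for Csk on the log2 scale. It differed from the change with IS by -1.49 for Yes1, -1.10 for Frk, -0.39 for Src and 0.39 for Csk. Without Control replicate 1 and IS replicate 4 the difference from IS for Csk was 0.28 (edgeR adjusted p = 0.151) and no longer passed. With the trend over GC content and length taken out it was 0.05 (edgeR adjusted p = 0.760), and its call held in 9 of 20 fits that left out 1 library. The trend taken out also ended the calls for Frk and Csk against the change without a stress.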

How the results depend on the processing

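The count of members called was 3 with oxLDL vs Control (3 to 4 over fits without 1 library) and 5 with oxLDL + pNaKtide vs oxLDL (4 to 5), and stayed within 1.5 times under every alternative run, although with the trend out the 3 with oxLDL were Yes1, Src and Ptk2. Of IS vs Control, 3 were called, 2 with the looser filter or with the trend out, and 0 with only the compared groups or at an adjusted p of 0.05 (0 to 4 without 1 library). Of oxLDL + pNaKtide vs Control, 1 was called, 3 with library size alone, 2 with more than 14 counts in every library, with the trend out or by DESeq2, and 0 with only the compared groups, at 0.05 or without Control replicate 1 and IS replicate 4 (0 to 1 without 1 library). Of IS + pNaKtide vs Control, 0 were called, 2 with the compared groups or DESeq2, 1 with the trend out and 3 without those 2 libraries (0 to 3). For the change with pNaKtide under oxLDL minus without, 3 were called and 5 with library size alone (3 in every fit without 1 library), and minus that under IS 4 (3 to 4). Ptk2 with oxLDL + pNaKtide vs oxLDL turned to 0.20 with the trend out. With library size alone the median of all genes was 0.17 with oxLDL instead of 0.04 and -0.30 with oxLDL + pNaKtide vs oxLDL instead of -0.09, and all called members there kept their direction. Over all genes the trend out called 4031 with oxLDL against 7259, and 893 with IS against 1599. Genes called with IS numbered 15 to 6952 without 1 library and 9140 without Control replicate 1 and IS replicate 4. Except where values show it, the cause was not tested.

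Replicate numbers were not taken to pair the samples, since no label says so and correlations of same-numbered libraries ran from -0.48 to 0.58 between oxLDL and Control and from -0.10 to 0.67 between oxLDL + pNaKtide and oxLDL. Their median was 0.10, against -0.03 for other numbers, and 13 of 30 libraries were most like one of their own number, a hint from the data and not the design. With the replicate block 3 members were called with oxLDL, 3 with IS, 5 with oxLDL + pNaKtide vs oxLDL and 2 with IS + pNaKtide vs Control. Depth limits Lyn, with 109 counts in all.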
